A study of Homo sapiens with 6 samples.

Results

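Polycomb repressive complex 2 (PRC2) was followed across cell lines of atypical teratoid rhabdoid tumor (AT/RT), an embryonal brain tumor of early childhood that loses SMARCB1, a subunit of the SWI/SNF chromatin remodeler. The genes were chosen by name, from the known composition of the complex, and all 10 of them were found among the 36532 genes of the transcript files: EZH1, EZH2, EED, SUZ12, RBBP4, RBBP7, JARID2, MTF2, PHF1 and PHF19. The libraries came from 4 patient-derived lines of the CHLA series (02, 04, 05 and 06) that were grown untreated in serum-free medium with EGF, basic FGF and B-27, and the study's text places CHLA 06 in another molecular group than the other lines. CHLA 02 and CHLA 05 had 1 library each, while CHLA 04 and CHLA 06 had 2 technical replicates each. No library came from normal cells or from cells with SMARCB1 restored, and with 1 biological sample per cell line no test between cell lines was made, so differences are set beside the spread between technical replicates and beside all other genes.

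PRC2 places methyl groups on lysine 27 of histone H3 (H3K27), the mark of silenced developmental genes. Its catalytic subunit is either EZH2, the form of dividing cells, or EZH1, the form that prevails in resting cells, and neither works without EED, which reads the mark, and SUZ12, the scaffold on which the complex is built. RBBP4 and RBBP7 are histone-binding proteins that PRC2 shares with other chromatin complexes. JARID2 on the one hand and the Polycomb-like proteins MTF2, PHF1 and PHF19 on the other bring the core complex to chromatin, in alternative assemblies. SWI/SNF opposes Polycomb silencing, which is why EZH2 is followed in tumors without SMARCB1.

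Values are TPM, the length-corrected share of a transcript among 1000000 transcripts of its library, summed over the transcripts of a gene. Libraries held 10265899 to 20520228 reads on transcripts, recovered from the TPM steps, and 1 read on a transcript of 1000 bases was worth 0.117 to 0.236 TPM. Intervals of TPM values are 95% Wilson intervals from these reads. Intervals of ratios are 95% intervals computed on the log scale from the reads of both genes. Both kinds cover counting error only. SMARCB1 RNA itself was present in every library, at 13.5 TPM in CHLA 02, 26.2 and 22.1 TPM in CHLA 04, 16.3 TPM in CHLA 05, and 17.3 and 16.2 TPM in CHLA 06, which says nothing about the protein. The 6 markers of blood and endothelium summed to 0.344 to 22.7 TPM. Most of the highest sum was CD68, a macrophage marker, at 6.36 TPM in CHLA 02, at 6.34 and 22.6 TPM in CHLA 06, and at 0.90 TPM or less elsewhere. CD3E and HBB were listed at 0 in every library, and PTPRC, the pan-leukocyte marker, was at 0.22 TPM at most. The libraries differed widely in other markers. The summed level of 6 fibroblast genes was 1259 TPM in CHLA 02, 13.5 to 24.04 TPM in CHLA 04, 51.2 TPM in CHLA 05 and 1122 to 1981 TPM in CHLA 06. In CHLA 02 and CHLA 06 this was mostly COL1A1 and COL3A1, whereas COL1A2 and PDGFRB were lowest in CHLA 06 and highest in CHLA 05. Summed neuronal markers lay at 323 to 463 TPM in CHLA 06 and at 543 to 1136 TPM in the other lines. In CHLA 06 the neuronal sum was mostly TUBB3, which was highest there at 311 and 455 TPM. MAP2, RBFOX3, SYP and SNAP25 were lowest in CHLA 06. For 6 neural progenitor genes the sums ran from 7222 to 19479 TPM and were mostly VIM, which alone reached 19464 TPM in CHLA 06. The other 5 of them were lowest in CHLA 06. The sums were 22.4 to 209 TPM for 6 astrocyte and oligodendrocyte genes. Whether such differences in cell state have a part in the PRC2 values below was not tested.

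The catalytic pair stands at the centre of the results, together with RBBP4 and RBBP7, the other pair of close relatives. The 250 bases before a transcription start of these 4 genes are shown because both pairs hold a gene that differed widely between the lines and a gene that differed less. They were taken from RefSeq on GRCh38.p14, where all 10 genes matched with 15 windows in all, and are printed 5′ to 3′ on the strand of the gene. Capitals mark CCAAT (or ATTGG on the other strand) and the E2F-type motifs TTTCCCGC, TTTGGCGC, TTTCGCGC and TTTGCCGC on either strand, which were chosen after the values were seen.
EZH2, chr7:148884292-148884541, minus strand: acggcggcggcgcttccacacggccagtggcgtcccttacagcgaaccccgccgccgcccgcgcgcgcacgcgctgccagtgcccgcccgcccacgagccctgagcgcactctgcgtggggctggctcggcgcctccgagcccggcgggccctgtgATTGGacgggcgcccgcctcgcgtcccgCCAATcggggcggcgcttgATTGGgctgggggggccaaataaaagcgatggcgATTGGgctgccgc
EZH1, chr17:42745041-42745290, minus strand: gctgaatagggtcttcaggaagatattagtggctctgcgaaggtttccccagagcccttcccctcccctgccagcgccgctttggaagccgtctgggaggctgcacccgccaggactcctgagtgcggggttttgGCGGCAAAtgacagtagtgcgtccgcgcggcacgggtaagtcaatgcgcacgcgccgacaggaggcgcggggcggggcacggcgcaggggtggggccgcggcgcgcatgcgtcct
RBBP7, chrX:16870363-16870612, minus strand: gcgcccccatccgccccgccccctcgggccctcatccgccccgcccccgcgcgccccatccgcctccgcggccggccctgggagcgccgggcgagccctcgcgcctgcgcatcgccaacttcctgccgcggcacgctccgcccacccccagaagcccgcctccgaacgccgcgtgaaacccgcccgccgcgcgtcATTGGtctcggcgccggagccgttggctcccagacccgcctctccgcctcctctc
RBBP4, chr1:32650958-32651207, plus strand: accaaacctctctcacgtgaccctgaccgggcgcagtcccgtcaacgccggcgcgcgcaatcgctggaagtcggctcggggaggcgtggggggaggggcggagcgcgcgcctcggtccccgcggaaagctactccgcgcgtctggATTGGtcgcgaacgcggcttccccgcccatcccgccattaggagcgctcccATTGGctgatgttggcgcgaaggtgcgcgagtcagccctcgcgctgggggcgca

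The EZH2 window shown held 4 CCAAT motifs, whose first bases lay 94, 66, 47 and 13 bases before the start, and the EZH1 window held none. A second EZH2 window (chr7:148883486-148883735), at another annotated start, held none either. RBBP7 had 1 and RBBP4 had 2 in the windows shown. Over all windows of the members, 10 of 15 held a CCAAT motif, against 32.0% of the 35116 promoter windows in the table. These windows belonged to 7 genes, and those of RBBP4 overlap and share a motif. An E2F-type motif stood in 3 of 15, before EZH1, SUZ12 and PHF19, against 2.79% of all windows. The windows of the members were rich in G and C, with 14 of 15 above the median of 58% over all windows. A match of letters is a description of the window and not evidence of binding.

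The 10 genes differed in how far they were held constant. The difference between the highest and the lowest cell line, on the scale log2(TPM + 2), ran from 0.15 for EZH1 to 1.93 for EZH2, with a median of 1.12. Over all 14827 genes with a mean of at least 1 TPM the median was 0.91. At least 2-fold (a difference of 1) separated the highest from the lowest line in 6 of the 10 members, EZH2, RBBP7, JARID2, SUZ12, PHF19 and PHF1, while 45.2% of all genes tested did so. The other 4, MTF2, RBBP4, EED and EZH1, stayed within 0.55. The lowest line mean was in CHLA 06 for 7 of the 10 members. The highest was in CHLA 04 or CHLA 05 for 4 members each. No share of all genes tested was computed for these counts. Of the 7, only RBBP7 and PHF1 had the libraries of CHLA 06 apart from the next line. Libraries overlapped there for EZH1, EZH2, SUZ12, MTF2 and PHF19. The median difference of all genes tested also put CHLA 06 lower, 0.20 below CHLA 04 and 0.17 below CHLA 05. PHF1 stood at 1.005, on the threshold, and fell below it under 6 of the alternatives. JARID2 was at 0.998 without replicate 1 of CHLA 04.

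**Figure D1:**
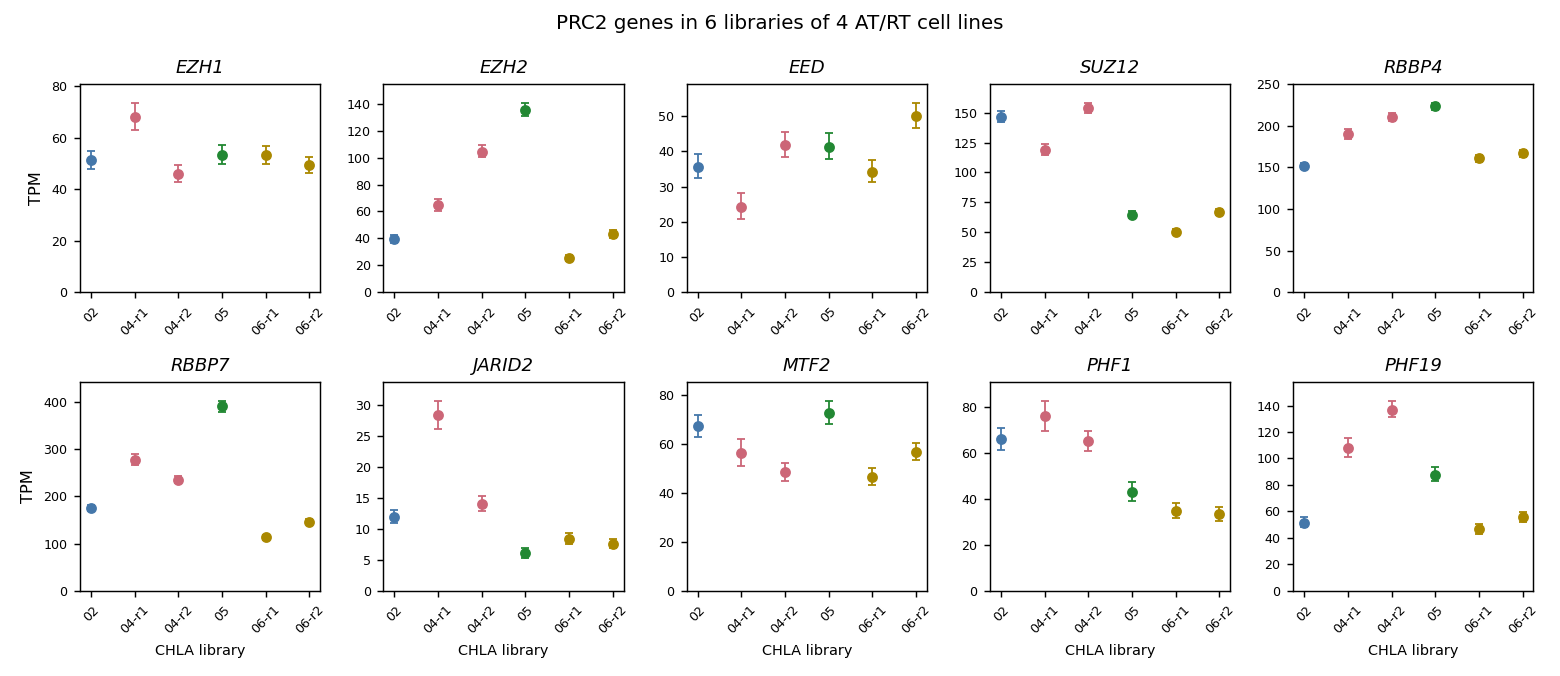
TPM of the 10 PRC2 genes (y axes, each from 0) in the 6 libraries (x axes, r1 and r2 being the technical replicates), with 95% Wilson intervals of the recovered reads as bars and 1 color per cell line. EZH1 stays between 45.9 and 68.3 TPM, while EZH2 runs from 25.1 TPM in CHLA 06 to 136 TPM in CHLA 05.

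EZH2, the catalytic subunit of dividing cells (ENSG00000106462, chr7:148807383-148884321, minus strand), was at 39.5 TPM in CHLA 02, 64.7 and 105 TPM in CHLA 04, 136 TPM in CHLA 05, and 25.1 and 43.1 TPM in CHLA 06. CHLA 05 stood above every other library, both libraries of CHLA 04 stood above those of CHLA 02 and CHLA 06, and CHLA 02 lay between the replicates of CHLA 06. The means were 84.7 ± 28.3 TPM (SD, n = 2 technical replicates) in CHLA 04 and 34.1 ± 12.7 TPM (SD, n = 2) in CHLA 06, so that the highest line exceeded the lowest 3.98-fold. The technical replicates themselves differed 1.62-fold in CHLA 04 and 1.72-fold in CHLA 06. These gaps are wider than the counting intervals, which were 60.3 to 69.4 and 100.3 to 109 TPM for the libraries of CHLA 04. Among the genes above 0 in a library, EZH2 stood between the percentiles 62.2 and 92.8.

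EZH1, the other catalytic subunit (ENSG00000108799, chr17:42700275-42745049, minus strand), had the smallest range of line means of the 10. It was at 51.3 TPM in CHLA 02, 68.3 and 45.9 TPM in CHLA 04, 53.4 TPM in CHLA 05, and 53.2 and 49.3 TPM in CHLA 06. No order of the lines can be read from these values, since the replicates of CHLA 04 spanned all other libraries and the highest line mean exceeded the lowest by 1.11-fold. Among all genes tested, 1.15% had a range over the lines as small as that of EZH1 or smaller. The range of 0.15 rests on the average over CHLA 04. It was 0.40 without replicate 2 of CHLA 04, and 0.47 from protein-coding transcripts, where EED had the smaller range of 0.42.

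The balance of the catalytic subunits therefore followed EZH2. EZH2 RNA stood below EZH1 RNA in CHLA 02 and CHLA 06, with ratios of 0.77 in CHLA 02 (interval 0.70 to 0.85) and of 0.47 (0.42 to 0.52) and 0.87 (0.80 to 0.95) in CHLA 06. It stood above EZH1 in CHLA 05, at a ratio of 2.54 (2.35 to 2.76). The replicates of CHLA 04 fell on either side, with 0.95 (0.85 to 1.05) and 2.28 (2.10 to 2.47). A ratio within a library does not depend on scaling between libraries, and the disagreement in CHLA 04 came from EZH2 being higher and EZH1 lower in replicate 2. Summed, the pair gave 78.3 to 92.5 TPM in CHLA 02 and CHLA 06 and 133 to 189 TPM in CHLA 04 and CHLA 05. The ratio depends on the transcripts counted: restricted to protein-coding transcripts it was 0.460 in CHLA 02 and 1.51 in CHLA 05, and from the most abundant transcript of each gene it was at or above 1 in all 4 lines.

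Genes of the cell cycle differed between the same technical replicates as EZH2. CHLA 02 had a summed level of 1310 TPM over 10 proliferation genes, among them MKI67, TOP2A and PCNA. The sum was 1716 TPM in replicate 1 and 2869 TPM in replicate 2 of CHLA 04, 2540 TPM in CHLA 05, and 1163 TPM in replicate 1 and 2056 TPM in replicate 2 of CHLA 06. All 10 of these genes were higher in replicate 2 than in replicate 1, in CHLA 04 and in CHLA 06 alike. Per 1000 TPM of this sum, EZH2 was at 30.1 TPM in CHLA 02, 37.7 and 36.5 TPM in CHLA 04, 53.5 TPM in CHLA 05, and 21.6 and 21.0 TPM in CHLA 06. On this scale the technical replicates of a line nearly coincided, and CHLA 05 was the highest and CHLA 06 the lowest. The scale was computed over all EZH2 transcripts only. Protein-coding EZH2 transcripts gave 20.9 and 43.1 TPM in CHLA 04 and 32.6 TPM in CHLA 05. For these, replicate 2 of CHLA 04 stood above CHLA 05 relative to the sum too. Over single libraries EZH2 did not keep the order of the sum, since replicate 2 of CHLA 04 had the highest sum but, over all transcripts, less EZH2 than CHLA 05. The scale was chosen after the values were seen, and the part of proliferation in the EZH2 level was not tested.

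**Figure D2:**
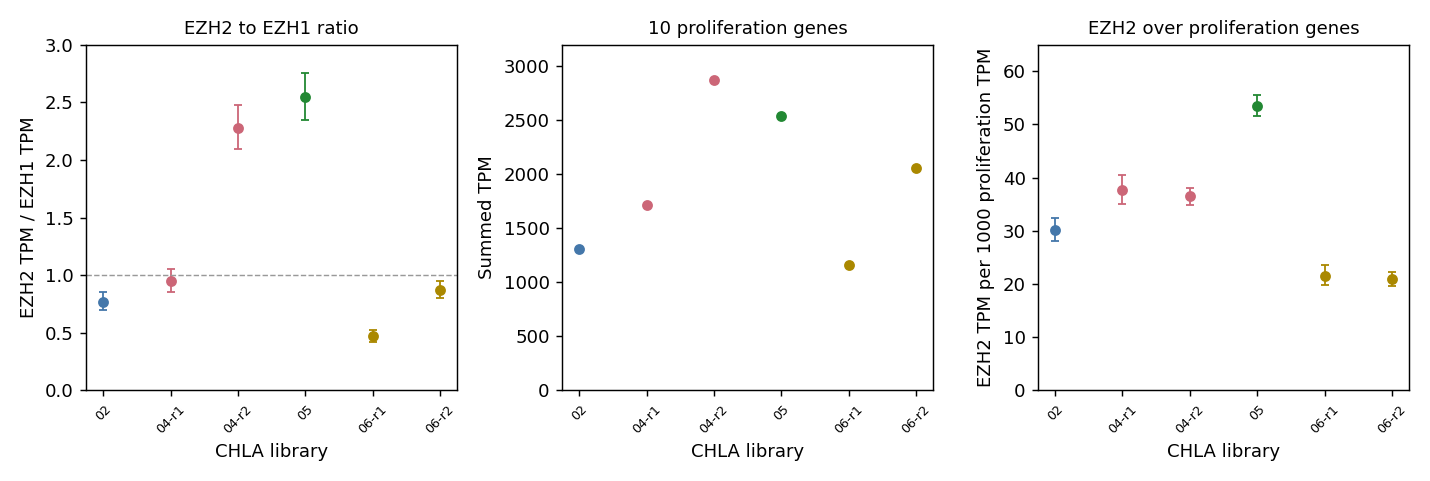
Ratio of EZH2 TPM to EZH1 TPM (left, dashed line at 1), summed TPM of 10 proliferation genes (middle) and EZH2 TPM per 1000 TPM of that sum (right) in the 6 libraries, with 95% counting intervals (at right, of EZH2 only). The replicates of CHLA 04 are apart at left, at 0.95 and 2.28, and close at right, at 37.7 and 36.5.

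The technical replicates differed in the same direction in both lines for 8 of the 10 members, against 57.9% of the genes tested. EZH2, EED, SUZ12, RBBP4 and PHF19 were higher in replicate 2 of CHLA 04 and of CHLA 06, and EZH1, JARID2 and PHF1 were lower. No member differed by 2-fold on the log2(TPM + 2) scale between the replicates, as 4.26% of the genes tested did in CHLA 04 and 1.03% in CHLA 06. The largest such differences were those of JARID2 in CHLA 04 (0.92), EED in CHLA 04 (0.74) and EZH2 in CHLA 06 (0.74). The labels call these libraries technical replicates and do not say at which step they were divided.

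SUZ12, the scaffold of the complex (ENSG00000178691, chromosome 17), separated the lines into a high and a low pair. CHLA 02 had 147 TPM and the libraries of CHLA 04 had 119.1 and 154 TPM, but the level was 64.7 TPM in CHLA 05 and 50.5 and 66.8 TPM in CHLA 06. The pairs did not overlap, since the lowest library of the first was at 119.1 TPM and the highest of the second at 66.8 TPM. Within a pair the lines could not be ordered, since CHLA 02 lay between the replicates of CHLA 04 and CHLA 05 between those of CHLA 06.

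EED, the subunit that binds the H3K27 mark (ENSG00000074266, chromosome 11), did not follow SUZ12. Its level was 35.7 TPM in CHLA 02, 24.2 and 41.8 TPM in CHLA 04, 41.3 TPM in CHLA 05, and 34.2 and 50.1 TPM in CHLA 06. The spread between replicates covered the differences between lines, whose means lay within 1.28-fold. SUZ12 exceeded EED 4.11-fold in CHLA 02 and 4.93-fold and 3.68-fold in CHLA 04, compared with 1.57-fold in CHLA 05 and 1.48-fold and 1.33-fold in CHLA 06. The ratio of SUZ12 to EZH2 ran further, from 3.72 in CHLA 02 to 0.48 in CHLA 05, with 1.47 to 2.01 in the other libraries. CHLA 05 was the only library with more EZH2 than SUZ12 RNA over all transcripts. On protein-coding transcripts alone the order in CHLA 05 was reversed, with EZH2 at 32.6 TPM and SUZ12 at 63.4 TPM.

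SUZ12 has a partial copy, SUZ12P1, on the same chromosome. No stretch of at least 125 bases, the read length, at 98% identity or more was found elsewhere in the genome for the longest protein-coding transcript of any member. Shorter matches stood in SUZ12, RBBP4 and JARID2. In SUZ12, 4 stretches of 66 to 111 bases matched near SUZ12P1, so that some reads could be shared. SUZ12P1 was itself at 43.4 TPM in CHLA 02, 54.6 and 49.8 TPM in CHLA 04, 41.7 TPM in CHLA 05, and 27.3 and 28.5 TPM in CHLA 06. SUZ12P1 was lowest in CHLA 06, as was the line mean of SUZ12, but its level in CHLA 05 was close to that in CHLA 02.

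RBBP7 and RBBP4 were the most abundant members. RBBP7 (ENSG00000102054, chromosome X) was at 175 TPM in CHLA 02, 278 and 236 TPM in CHLA 04, 391 TPM in CHLA 05, and 113 and 146 TPM in CHLA 06. This was the order of EZH2, and here no neighboring lines overlapped, by their libraries or by their counting intervals. RBBP4 (ENSG00000162521, chromosome 1) was at 152 TPM in CHLA 02, 190.5 and 211 TPM in CHLA 04, 224 TPM in CHLA 05, and 161 and 167 TPM in CHLA 06. It too was highest in CHLA 05, but its line means lay within 1.47-fold where those of RBBP7 reached 3.01-fold. RBBP4 stood below RBBP7 in CHLA 02 (a ratio of 0.86), CHLA 04 (0.69 and 0.89) and CHLA 05 (0.57), and above it in CHLA 06 (1.42 and 1.14).

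JARID2, which recruits PRC2 and is itself methylated by it, had the lowest level of the members in 5 of the 6 libraries (ENSG00000008083, chromosome 6). In replicate 1 of CHLA 04 EED was lower. JARID2 was at 11.9 TPM in CHLA 02, 28.3 and 14.0 TPM in CHLA 04, 6.02 TPM in CHLA 05, and 8.37 and 7.58 TPM in CHLA 06. CHLA 04 was highest in both libraries, yet its replicates differed 2.02-fold, and the counting intervals of replicate 2 (12.9 to 15.3 TPM) and of CHLA 02 (10.9 to 13.0 TPM) overlapped. CHLA 05, the line with the most EZH2, had the lowest JARID2 value, but its interval (5.27 to 6.88 TPM) overlapped that of replicate 2 of CHLA 06 (6.84 to 8.39 TPM).

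Among the Polycomb-like proteins, which bind DNA and methylated H3 lysine 36, PHF19 had the widest range of line means (1.23). Without replicate 2 of CHLA 04 that of PHF1 was wider, 1.11 against 1.05, as it was from the most abundant transcript, 1.27 against 0.90. PHF19 (ENSG00000119403, chromosome 9) was at 51.4 TPM in CHLA 02, 108 and 137 TPM in CHLA 04, 87.8 TPM in CHLA 05, and 46.5 and 55.7 TPM in CHLA 06. CHLA 04 and CHLA 05 stood apart from the other libraries and from each other, while CHLA 02 lay between the replicates of CHLA 06. PHF1 (ENSG00000112511, chromosome 6) was at 66.0 TPM in CHLA 02, 75.8 and 64.9 TPM in CHLA 04, 42.9 TPM in CHLA 05, and 34.8 and 33.3 TPM in CHLA 06. It thus shared the split of SUZ12, with CHLA 02 and CHLA 04 above CHLA 05 and CHLA 06. MTF2 (ENSG00000143033, chromosome 1) was at 67.3 TPM in CHLA 02, 56.2 and 48.3 TPM in CHLA 04, 72.6 TPM in CHLA 05, and 46.5 and 56.8 TPM in CHLA 06. Its lines fell into CHLA 05 and CHLA 02, whose intervals overlapped, above CHLA 04 and CHLA 06, which overlapped as well. Protein-coding transcripts held 21.0% to 50.5% of MTF2 TPM, and on these alone CHLA 06 stood above CHLA 02. They gave 20.7 TPM in CHLA 02, 11.8 and 18.1 TPM in CHLA 04, 24.1 TPM in CHLA 05, and 23.5 and 23.4 TPM in CHLA 06.

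The makeup of the accessory RNAs differed accordingly. Of the summed TPM of MTF2, PHF1, PHF19 and JARID2, PHF19 made up 26.1% in CHLA 02 and 40.3% and 51.8% in CHLA 04. In CHLA 05 its share was 41.9%, and in CHLA 06 it was 34.2% and 36.3%. JARID2 made up 2.88% in CHLA 05 and between 4.94% and 10.5% in the other libraries. The Polycomb-like genes together exceeded JARID2 8.48-fold to 19.2-fold in these libraries and 33.8-fold in CHLA 05.

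The pairwise comparisons of the lines set these values beside the other genes. Between CHLA 04 and CHLA 06, 5 of the 10 members were at least 2-fold apart, EZH2, SUZ12, JARID2, PHF1 and PHF19, all of them higher in CHLA 04, where 32.2% of all genes tested were 2-fold apart in either direction. The median difference was 0.99 for the members and 0.20 for all genes, both toward CHLA 04. After a median-of-ratios scaling, 2 of the 5 remained (EZH2 and JARID2), and without replicate 1 of CHLA 04 it was 3 (EZH2, SUZ12 and PHF19). EZH2 and SUZ12 were below 2-fold without replicate 2 of CHLA 04, as EZH2 was without replicate 1 of CHLA 06.

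CHLA 05 exceeded CHLA 06 by at least 2-fold in 2 members, EZH2 (a difference of 1.93) and RBBP7 (1.58), against 27.6% of all genes in either direction. CHLA 02 and CHLA 05 differed in 3 members, with EZH2 (1.73) and RBBP7 (1.15) higher in CHLA 05 and SUZ12 (1.16) higher in CHLA 02, against 21.1% of all genes. Between CHLA 02 and CHLA 04 the count was 2 members, EZH2 (1.06) and PHF19 (1.22), both higher in CHLA 04, against 18.5% of all genes, and EZH2 was not among them when replicate 2 of CHLA 04 was left out, nor after median-of-ratios scaling or quantile normalization. CHLA 04 exceeded CHLA 05 in 2 members, SUZ12 (1.06) and JARID2 (1.53), against 18% of all genes. JARID2 was no longer 2-fold apart without replicate 1 of CHLA 04, nor SUZ12 without replicate 2. CHLA 02 and CHLA 06 were the closest pair, with only SUZ12 (1.30, higher in CHLA 02) 2-fold apart, against 10.2% of all genes.

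**Figure D3:**
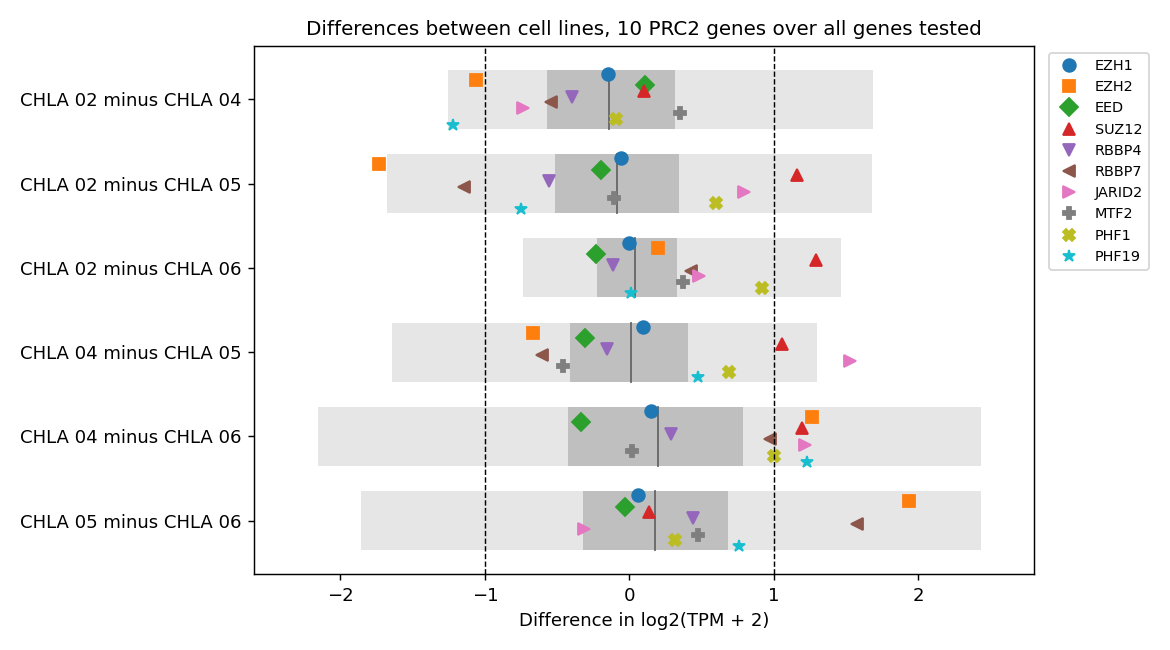
Differences in log2(TPM + 2) between pairs of cell lines (x axis) for the 10 members (symbols) over all 14827 genes tested, whose middle 50% is shown in dark grey, whose middle 90% in light grey and whose median as a line. Dashed lines mark 2-fold, and between CHLA 04 and CHLA 06 the median of the members is 0.99 and that of all genes 0.20.

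The transcripts behind these sums were of different kinds. By GENCODE annotation (v44), which lists all 121 member transcripts and gives 110 of them the same exons, protein-coding transcripts made up 97.0% to 99.9% of SUZ12 TPM and 90.4% to 100% of JARID2 TPM. In EZH2 they made up 24.01% to 41.2%, and transcripts annotated as targets of nonsense-mediated decay made up 51.8% to 68.8%. PHF1 had 37.5% to 45.5% on such transcripts. In EZH1, 34.0% to 49.9% lay on transcripts with a retained intron, and in EED 34.5% to 45.6%. Over all genes, protein-coding transcripts held 69.0% to 77.1% of the TPM of a library. Short transcripts weigh more in TPM than in reads, and the assignment of reads among overlapping transcripts is an estimate of the mapping program.

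**Figure D4:**
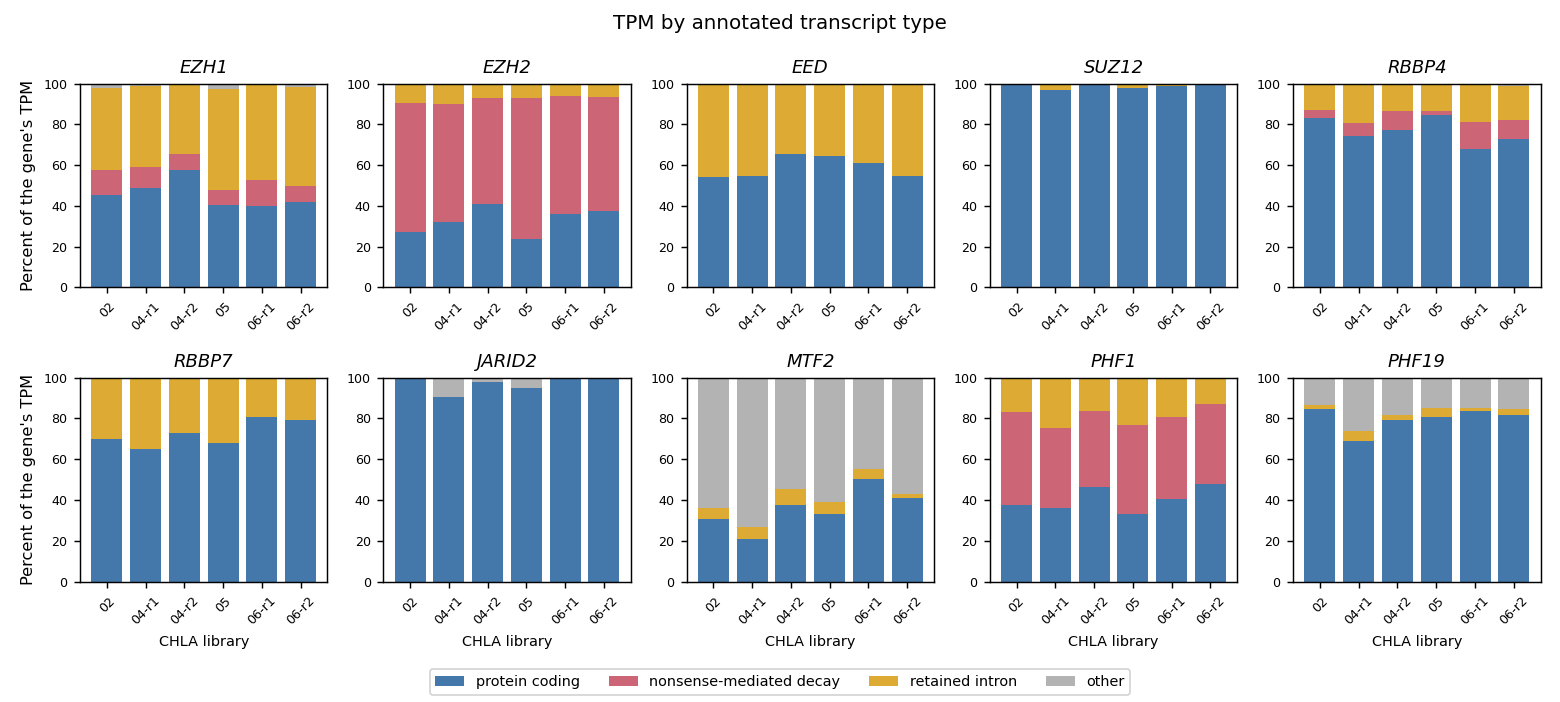
Share of the TPM of each member (y axes, percent) by annotated transcript type in the 6 libraries (x axes). Decay-annotated transcripts hold 51.8% to 68.8% of EZH2, and SUZ12 is coding for 97.0% or more in every library.

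The EZH2 transcript with the most TPM, ENST00000492143, was of the decay class in its annotation. It was at 18.6 TPM in CHLA 02, 30.5 and 47.1 TPM in CHLA 04, 79.0 TPM in CHLA 05, and 10.1 and 16.9 TPM in CHLA 06, and thus in the order of lines that the whole gene had. The leading coding transcript, ENST00000350995, was at 4.16 TPM in CHLA 02, 9.83 and 24.5 TPM in CHLA 04, 18.1 TPM in CHLA 05, and 4.17 and 9.78 TPM in CHLA 06. Here replicate 2 of CHLA 04 stood above CHLA 05. Protein-coding EZH2 transcripts summed to 32.6 TPM in CHLA 05 and to 20.9 and 43.1 TPM in CHLA 04, so that on this sum CHLA 05 lay between the replicates of CHLA 04.

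ENST00000492143 keeps as exon 928 bases that ENST00000350995 removes as introns, within a single exon of 1434 bases (chr7:148816684-148818117) that spans 3 of its coding exons. It also holds an exon of 82 bases (chr7:148818978-148819059) that ENST00000350995 lacks, and a further exon of 117 bases (chr7:148832634-148832750) that ENST00000350995 lacks as well. Only 444 bases of ENST00000492143 lie in no other transcript of the gene. Part of what ENST00000350995 lacks is therefore shared with other EZH2 transcripts and does not mark the decay form. The annotated reading frame ends in the exon of 82 bases, 9 exons before the end of the transcript. The first 21 bases of that exon are shown because they carry this stop codon, which is in capitals (chr7:148819039-148819059, GRCh38, minus strand).
EZH2 exon start: ccactcctacctaggaacTAA
The libraries were made from total RNA, which holds unspliced RNA too, and the files give no coverage along the transcript. Reads from retained introns and reads from the exons that ENST00000350995 lacks can therefore not be told apart.

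The other members with several forms were led by the following transcripts. EZH1 was led by ENST00000586103, with a retained intron, at 8.96 to 14.2 TPM in CHLA 02, CHLA 05 and CHLA 06. In CHLA 04 the coding transcript ENST00000415827 led, with 13.7 and 9.84 TPM against 9.11 and 6.53 TPM. RBBP4 was led by ENST00000373493, a coding transcript of 7943 bases of which 5875 lie in no other transcript of the gene, at 84.5 to 167 TPM. PHF19 was led by ENST00000312189, a coding transcript of 836 bases and 5 exons, at 21.5 to 49.9 TPM, and a longer coding form of 4241 bases, ENST00000373896, was at 11.2 to 45.3 TPM. MTF2 was led by ENST00000489480, for which no reading frame is defined, at 13.5 to 20.3 TPM in 5 of the 6 libraries. In replicate 1 of CHLA 06 it was at 10.5 TPM, below the coding transcript ENST00000370303 at 13.05 TPM.

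A separate mapping to long terminal repeat (LTR) elements, on a TPM scale of its own, gave a second readout within the gene spans of the members. The gene spans held 49 LTR elements, 14 on the strand of the gene and 35 on the other. Of these, 13 of 14 and 6 of 35 had reads in at least 1 library, compared with 16.3% of all 720177 elements. That share covers the whole genome, and none was computed for elements inside expressed genes. None belonged to HERVK-int or LTR5_Hs, the elements the study was about. Inside an EZH2 intron, an MSTA element on the strand of the gene (chr7:148868215-148868608) was at 50.4 LTR TPM in CHLA 02, 33.9 and 82.1 LTR TPM in CHLA 04, 148 LTR TPM in CHLA 05, and 31.2 and 34.1 LTR TPM in CHLA 06. The adjoining MSTA-int element was at 29.1 LTR TPM in CHLA 02, 48.3 and 86.7 LTR TPM in CHLA 04, 134 LTR TPM in CHLA 05, and 40.6 and 39.6 LTR TPM in CHLA 06. Both were highest in CHLA 05 and second in replicate 2 of CHLA 04, as EZH2 was. The rest of the order differed from that of EZH2. MSTA was lower in replicate 1 of CHLA 04 than in CHLA 02, and MSTA-int was lower in CHLA 02 than in both libraries of CHLA 06. In RBBP4, a MER21C element on the strand of the gene lay between 78.7 and 130 LTR TPM. The MSTA, MSTA-int and MER21C elements overlapped no annotated exon of their genes.

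Genes whose profile over the 4 lines came nearest to that of a catalytic subunit were sought among 10309 protein-coding genes with at least 10 TPM, by the root-mean-square difference of centered log2(TPM + 2) values. Nearest to EZH2 were POLG, the mitochondrial DNA polymerase (0.04), MLLT4, which encodes the junction protein afadin (0.05), and MCM8, a DNA helicase (0.09). POLG was at 51.1 TPM in CHLA 02, at a mean of 107 TPM in CHLA 04, at 186 TPM in CHLA 05 and at a mean of 45.9 TPM in CHLA 06. Among the members RBBP7 came nearest, at rank 76 (0.23), and SUZ12 was farthest, at rank 8003 (1.03). Nearest to EZH1 were DPH2 (0.01), EMC1 (0.02) and ZNF235 (0.02). With 4 points per profile, many genes come close.

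Other genes of the Polycomb system were taken from lists. Of 8 further PRC2-associated proteins, 7 were above a mean of 1 TPM and 1 was at least 2-fold apart over the lines, against 45.2% of all genes tested. This was SKIDA1, at 3.36 TPM in CHLA 02, 0.11 and 0.05 TPM in CHLA 04, 3.52 TPM in CHLA 05, and 8.85 and 7.72 TPM in CHLA 06. EPOP, which links PRC2.1 to elongins, was at 6.27 TPM in CHLA 02, 15.01 and 12.7 TPM in CHLA 04, 8.57 TPM in CHLA 05, and 6.01 and 6.39 TPM in CHLA 06. Elongin B (ELOB) was at 115 to 196 TPM. EZHIP, an inhibitor of PRC2 in other childhood brain tumors, was listed at 0 in every library.

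PRC1, the partner complex that ubiquitinates histone H2A and compacts chromatin at H3K27-methylated sites, was measured through 22 genes, all above 1 TPM on average. Of these, 8 were at least 2-fold apart over the lines, against 45.2% of all genes tested, and their median range of 0.84 was below that of all genes (0.91). CBX2, a chromodomain reader of the H3K27 mark, was at 13.6 TPM in CHLA 02, 52.8 and 46.4 TPM in CHLA 04, 73.2 TPM in CHLA 05, and 5.82 and 6.45 TPM in CHLA 06. PHC2, which polymerizes PRC1, was at 148 TPM in CHLA 02, 390 and 296 TPM in CHLA 04, 240.1 TPM in CHLA 05, and 51.3 and 53.2 TPM in CHLA 06. Both were lowest in CHLA 06, apart from every other library. The E3 ligase RNF2, chosen after its values were seen, went the other way, with 37.8 and 40.6 TPM in CHLA 06, 31.1 TPM in CHLA 02 and 12.8 to 20.5 TPM in CHLA 04 and CHLA 05.

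Of the 6 genes for removal of the H3K27 and H2A marks, 2 were 2-fold apart over the lines, where 45.2% of all genes tested were. ASXL3 was at 10.04 TPM in CHLA 02, 0.46 and 0.23 TPM in CHLA 04, 13.1 TPM in CHLA 05, and 23.9 and 16.8 TPM in CHLA 06. KDM6A, a demethylase of H3K27, was at 24.1 TPM in CHLA 05 and at 46.2 to 53.7 TPM in the other libraries. ASXL1 (77.9 to 149 TPM) and BAP1 (55.6 to 114 TPM), which together remove ubiquitin from H2A, were less variable. Of 10 writers of other marks that limit the spread of PRC2, 4 were 2-fold apart against the same 45.2%. Of the 10, 8 were highest in CHLA 04 and 8 were lowest in CHLA 06. These 2 counts have no share of all genes beside them. All genes tested leaned the same way, with a median difference of 0.20 toward CHLA 04 over CHLA 06. Among them, KMT2A was at 183 TPM in CHLA 02, 276 and 241 TPM in CHLA 04, 137 TPM in CHLA 05, and 76.9 and 85.8 TPM in CHLA 06. NSD2, which methylates H3 lysine 36, was at 401 and 407 TPM in CHLA 04 and 166 to 234 TPM elsewhere. KMT2C was at 165 and 205 TPM in CHLA 04 and at 78.6 to 157 TPM elsewhere.

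Genes known as PRC2 targets in development were mostly low. Of 16, 7 were above a mean of 1 TPM, and GATA4 and NEUROG1 were listed at 0 in every library. Of the 7, 6 were at least 2-fold apart, against 45.2% of all genes tested. HAND2, a transcription factor of heart and limb, was at 46.8 TPM in CHLA 02, 11.9 and 10.3 TPM in CHLA 04, 15.4 TPM in CHLA 05, and 118 and 90.5 TPM in CHLA 06. LHX9 ran the other way, with 54.3 TPM in CHLA 05, 9.35 to 15.6 TPM in CHLA 02 and CHLA 04, and 0.02 TPM in 1 library of CHLA 06 with 0 in the other. The 7 targets had no common direction over the lines. Line means were lowest in CHLA 06 for 5 of them and in CHLA 04 for 2. They were highest in CHLA 04 for 3, in CHLA 05 for 2 and in CHLA 06 for 2. Here too no share of all genes was computed. A relation of these levels to EZH2 was not tested. The H3K27 mark was not measured in these files.

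**Figure D5:**
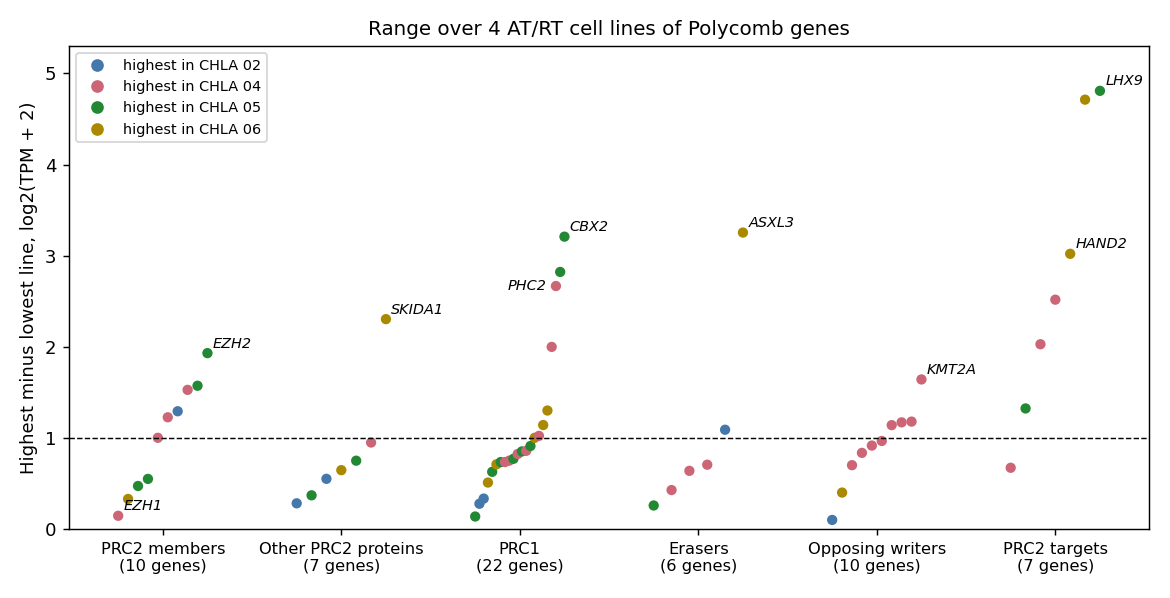
Difference between the highest and the lowest cell line in log2(TPM + 2) (y axis) for the 10 members and for genes of 5 lists with a mean of at least 1 TPM (x axis), colored by the line with the highest mean. The dashed line marks 2-fold, which 6 of 10 members, 8 of 22 PRC1 genes and 6 of 7 targets reach, against 45.2% of all genes tested.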

How the data were processed

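Total RNA of 4 AT/RT cell lines was sequenced by the authors from stranded, paired-end libraries (125 bp). Base calling (CASAVA 1.8.2), FastQC and Trimmomatic are named in the submitters' processing notes. The authors mapped the reads with CLCbio Genomics Workbench to GRCh38 (Ensembl release 82) and deposited TPM per transcript and, from a second mapping, TPM per LTR element. The strand setting of the counting is not given in the sources used here.

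Gene TPM was summed by Ensembl gene identifier. Reads were recovered as whole multiples of TPM times length (within 0.05 for at least 99.57% of values above 0 in each library), and the recovery and the calls were tested on simulated data. Lines were compared on log2(TPM + 2), the pedestal of the study, with technical replicates averaged, over genes with a mean of at least 1 TPM, and called at a difference of 1. No test was made. The members and lists were chosen with earlier results of these data known. Named genes were the members, SMARCB1, the most abundant gene and the 3 of largest range per list, and the 3 nearest profiles of EZH2 and EZH1; RNF2 was added, and 2 genes that the rule names are not reported here. Matches to the genome used blastn 2.17.0. Alternatives were other scalings, pseudocounts, filters and transcripts, and leaving out each technical replicate. Protein-coding transcripts only, reads scaled to depth without length, and the scaling of EZH2 to proliferation genes were added after the data were seen.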

Additional observations from a re-analysis of the deposited data

How the results depend on the processing

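Of 86 recomputed counts of members at least 2-fold apart, 78 stayed within 1.5 times the value reported. Those under other filters on low values could not change, since the lowest mean of a member was 11.76 TPM (JARID2). A count can also stay while its members change. Without replicate 2 of CHLA 04, the count for CHLA 02 against CHLA 04 stayed at 2, with JARID2 in place of EZH2. The count for CHLA 02 against CHLA 04 went from 2 to 1 with median-of-ratios scaling, to 1 with quantile normalization and to 0 with the most abundant transcript. For CHLA 02 against CHLA 06 it was 2 with the most abundant transcript. For CHLA 04 against CHLA 06 it went from 5 to 2 with median-of-ratios scaling and to 3 with quantile normalization. Leaving out 1 technical replicate gave 4 to 6 members over all lines, 3 to 5 for CHLA 04 against CHLA 06 and 1 to 2 for CHLA 04 against CHLA 05, where the low values of 3 and 1 came without replicate 1 of CHLA 04. The ratio of EZH2 to EZH1 from the most abundant transcript was 2.07 in CHLA 02, while CHLA 04 gave 5.28, CHLA 05 gave 6.54 and CHLA 06 gave 1.003, and 0.460 in CHLA 02 and 1.51 in CHLA 05 from protein-coding transcripts, which leave out the decay-annotated EZH2 transcripts. Without 1 replicate it was 0.95 to 2.28 in CHLA 04 and 0.47 to 0.87 in CHLA 06. By the most abundant transcript, PHF19 fell to a range of 0.90 and EED reached 1.11. No paired analysis was possible because no result came from a test. The cause of the other changes was not tested. Depth limits JARID2, with 215 to 627 reads per library, and EED, with 174 to 714, and the spread between cultures of a line was not measured.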
